A study of Mus musculus with 15 samples.

Results

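Mammary stem and tumour-initiating cell markers were followed in mammospheres, which are unattached spheres formed by primary mammary tumour cells, after 2 days of treatment with a signalling inhibitor. The markers were a list of 10 genes, and every probe set annotated to exactly 1 of them was taken. Such probe sets were found for 9 genes, 19 probe sets in all, out of 34945 single-gene probe sets for 18193 genes on the array. No probe set in the annotation used here was assigned to Ly6a alone, so that gene, which encodes the surface antigen Sca-1, was not analysed here. The tumours arose in mice of the FVB/N background that carry MMTV-PyMT, a transgene in which the mouse mammary tumour virus promoter drives the polyoma middle T oncogene in mammary epithelium. All 15 cultures came from such tumours and were grown unattached, without serum and with EGF, FGF and B27, for 10 days before treatment. DAPT (a Notch inhibitor, acting on γ-secretase), U0126 (a MEK1 inhibitor), TAE226 (a FAK inhibitor), PP2 (a Src inhibitor) and vehicle, whose solvent the labels do not name, were each given to 3 cultures called biological replicates. The labels do not say whether replicates were separate mice or separate cultures, and p-values therefore measure the spread between these samples, which may be technical. The sources used here do not give inhibitor doses, the age of the mice or whether tumours were pooled.

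The markers come from assays that enrich for cells able to rebuild a mammary gland or a tumour. CD44, CD24, PROM1 (CD133), KIT, EPCAM and PROCR are surface proteins by which such cells are sorted. ALDH1A1 and ALDH1A3 oxidise retinaldehyde to retinoic acid and are sources of the aldehyde dehydrogenase activity used to sort breast tumour cells. BMI1 is a polycomb protein needed for self-renewal in several tissues. In the mammary gland KIT and ALDH1A3 are known from luminal progenitors and PROCR from a basal stem cell population. The arrays measured RNA in whole cultures and not the surface protein or enzyme activity on which sorting rests. In such bulk RNA, fewer cells of a type and less RNA per cell cannot be told apart.

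Values are MAS5 signals, 1 per probe set and array, and fold changes are inhibitor over vehicle on the log2 scale unless another pair is named. Array medians ran from 65.7 to 90.8, and a probe set below its array's median on all arrays of a group is called dim there. A fold change against a dim group is given as a lower bound, with the dim arrays held at their medians. Adjusted p-values are from limma over 21323 tested probe sets, with 0.05 as the threshold. Each gene is described by its probe set of highest mean signal, and the others are given beside it. The cultures were epithelial by their markers: all 7 mammary epithelial genes, among them the keratins Krt8, Krt18, Krt5 and Krt14 and the cadherin Cdh1, lay above the median on every array. Markers of other cells were low. Of 8 mast cell genes 0 lay above the median on all arrays of any group, and the same held for 7 endothelial, 7 fibroblast and 4 erythroid genes. Of 10 immune cell genes, 1 or 2 did so in each group, while the pan-leukocyte gene Ptprc was dim in every group. The 10 summed to signals of 402 to 664 over PP2 arrays and 337 to 460.0 over vehicle arrays. Under PP2 the macrophage gene Adgre1, dim in vehicle, was at least 1.5-fold higher (adjusted p = 0.00591), Laptm5 was higher by 0.82 on the log2 scale (adjusted p = 0.00719), and Cd68 was lower and dim (adjusted p = 0.049). The part of immune cells in the PP2 results was not tested. RNA quality was read from actin, whose 3′ probe set over its 5′ probe set gave a ratio of 1.57 ± 0.04 in PP2, 1.33 ± 0.07 in TAE226, 1.28 ± 0.07 in U0126, 1.35 ± 0.07 in DAPT and 1.42 ± 0.06 in vehicle (SD, n = 3 each). The ratio was highest in PP2, and its part in the PP2 results was not tested.

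In limma's F-test over the 5 groups all 9 genes passed, as did 72.4% of all 11412 genes, and 17 of the 18 tested probe sets passed, against 68.1% of all probe sets. Against vehicle, PP2 changed 6 of the 9 genes (2 higher, 4 lower), U0126 changed 6 (3 higher, 3 lower), DAPT changed 5 (1 higher, 4 lower) and TAE226 changed 4 (2 higher, 2 lower). The shares of all genes called in the same comparisons were 52.3% for PP2, 39.8% for U0126, 33.5% for DAPT and 30.5% for TAE226. Higher and lower calls made up 25.8% and 26.5% of all genes under PP2, 19.0% and 20.8% under U0126, 16.5% and 17.0% under DAPT, and 15.0% and 15.5% under TAE226. Fitted changes of at least 2-fold were called for 3 markers under PP2 (9.11% of all genes), 2 under U0126 (5.67%), 1 under DAPT (3.79%) and 0 under TAE226 (2.82%). These counts include Aldh1a1, which passed the filter on dim probe sets only through its signal under U0126. Without it U0126 changed 5 of 8 genes (2 higher, 3 lower), 1 of them by at least 2-fold, and the median log2 fold change of the 8 other genes was −0.17 under PP2, 0.03 under U0126, −0.19 under DAPT and −0.06 under TAE226, against medians over all genes of 0.00 under U0126 and 0.02 under each of PP2, DAPT and TAE226. The groups did not overlap for 7 markers under PP2 (59.0% of all genes), 4 under U0126 (48.3%; 3 without Aldh1a1), 5 under DAPT (46.5%) and 5 under TAE226 (43.3%). By probe set the calls were 11 of 18 under PP2 (49.7% of all probe sets), 11 under U0126 (35.5%), 7 under DAPT (30.5%) and 8 under TAE226 (29.3%). The U0126 calls by probe set include Aldh1a1 and the Aldh1a3 probe set 1417642_at. The latter passed the filter through 2 U0126 arrays and 1 PP2 array, so the U0126 count is partly set by the filter. The split into higher and lower depended on the scaling for TAE226, with 4 and 4 as reported and 0 and 7 with arrays centred on their medians, and for U0126, with 6 and 5 as reported, 4 and 5 with quantile normalization and 3 and 4 with median centring. The markers did not move as one block, since under PP2 Kit rose while Prom1 and Procr fell, and under U0126 Procr rose while Bmi1 and Epcam fell.

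The inhibitors also differed from each other in these genes. Aldh1a1, dim in all groups but U0126, was left out of the gene counts. All 8 other genes differed between PP2 and DAPT (38.6% of all genes), 7 between PP2 and U0126 (55.0%), 6 between PP2 and TAE226 (42.4%), 7 between U0126 and DAPT (43.4%), 6 between TAE226 and DAPT (21.4%) and 4 between TAE226 and U0126 (36.0%). Over the same pairs the probe sets called, with Aldh1a1, were 14 of 18 (35.4% of all probe sets), 14 (51.4%), 13 (37.4%), 13 (38.6%), 9 (18.3%) and 10 (32.9%). Among these, Aldh1a1 between PP2 and DAPT and 1 Aldh1a3 probe set between TAE226 and DAPT were dim in both groups. The calls also include Aldh1a1 between U0126 and both PP2 and TAE226, and Aldh1a3 probe set 1417642_at between U0126 and both DAPT and TAE226. Both probe sets passed the filter on dim probe sets through U0126 arrays, with 1 PP2 array for the latter. The probe set counts for pairs with U0126 are thus partly set by the filter.

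**Figure D1:**
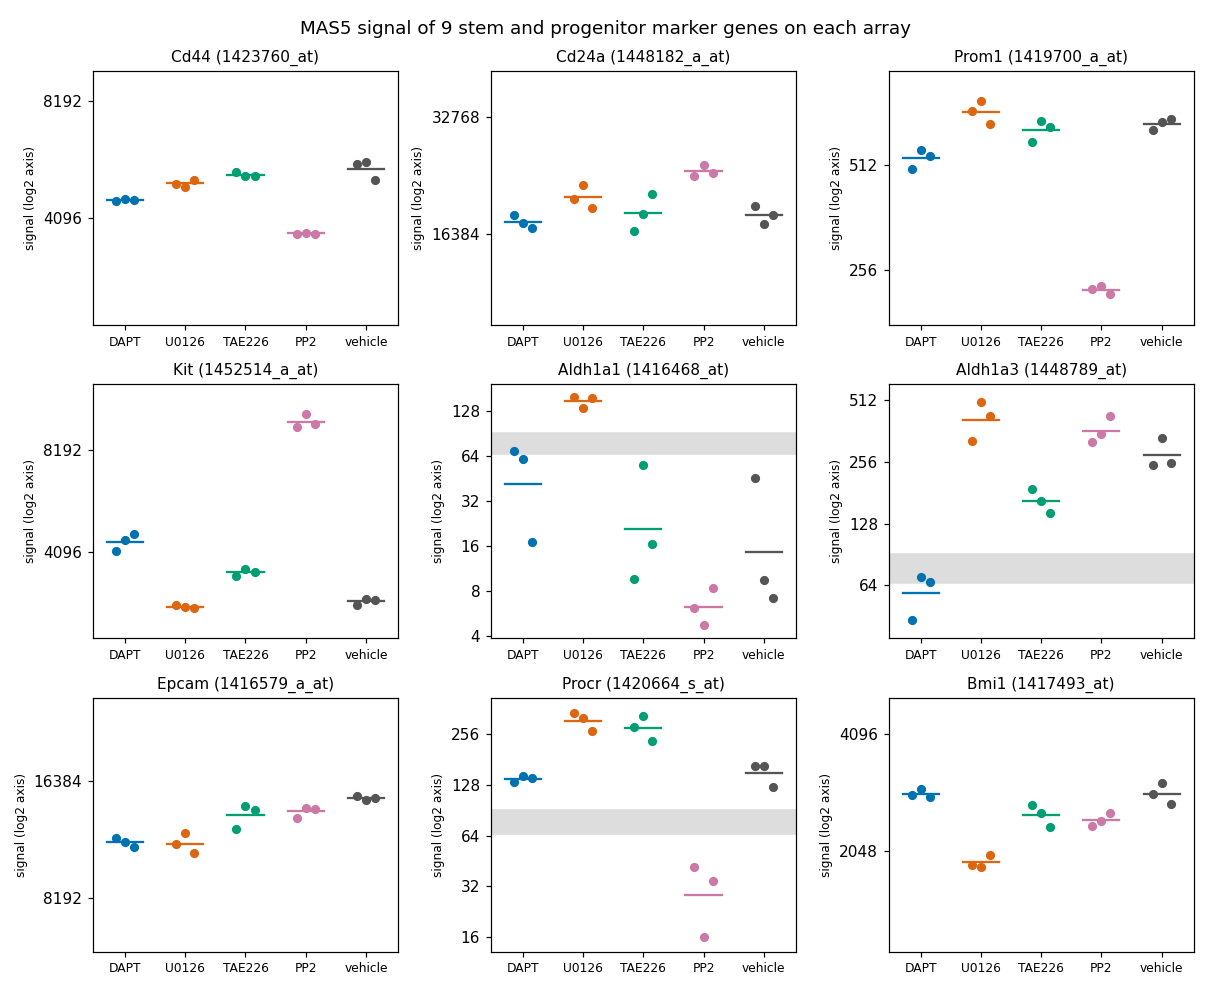
MAS5 signal (log2 axis, a separate range per panel) of the probe set of highest mean signal for each of 9 genes, 1 point per array and a bar at the mean of the log2 values, with DAPT, U0126, TAE226, PP2 and vehicle from left to right. The grey band is the range of array medians, 65.7 to 90.8, and the 3 PP2 arrays stand apart from the other 12 for Kit, Prom1, Procr and Cd44.

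The 3 markers with the greatest changes under PP2 were Procr, Kit and Prom1. The promoters of these genes, from RefSeq on GRCm38.p6, are shown because Prom1 and Procr fell under the Src inhibitor and Kit rose. Each runs 5′ to 3′ from 250 bases before the annotated start to 50 bases after it. Capitals mark matches on either strand to TGANTCA (AP-1), GGGCGG (GC box), GCGTG (the core of the dioxin response element) and TGGGAA (the core of the RBPJ site through which Notch acts). TATAAA was searched as well. The windows are chr5:44101687-44101986 on the minus strand for Prom1, chr2:155750967-155751266 on the plus strand for Procr and chr5:75574737-75575036 on the plus strand for Kit, where a further listed start lies within a few bases. A further Prom1 start, upstream of which AP-1 matched too, is not shown.
Prom1: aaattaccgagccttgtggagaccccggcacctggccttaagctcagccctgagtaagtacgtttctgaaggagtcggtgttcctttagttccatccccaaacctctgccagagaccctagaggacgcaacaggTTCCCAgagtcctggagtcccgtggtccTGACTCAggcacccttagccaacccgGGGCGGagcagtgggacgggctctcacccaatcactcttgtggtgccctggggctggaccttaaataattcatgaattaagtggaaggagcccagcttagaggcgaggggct
Procr: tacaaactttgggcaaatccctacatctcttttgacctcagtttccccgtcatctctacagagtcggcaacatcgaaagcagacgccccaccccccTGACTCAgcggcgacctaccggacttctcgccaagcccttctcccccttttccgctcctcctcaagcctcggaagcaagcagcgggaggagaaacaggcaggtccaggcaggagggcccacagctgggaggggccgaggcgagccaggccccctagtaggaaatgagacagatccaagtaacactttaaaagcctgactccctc
Kit: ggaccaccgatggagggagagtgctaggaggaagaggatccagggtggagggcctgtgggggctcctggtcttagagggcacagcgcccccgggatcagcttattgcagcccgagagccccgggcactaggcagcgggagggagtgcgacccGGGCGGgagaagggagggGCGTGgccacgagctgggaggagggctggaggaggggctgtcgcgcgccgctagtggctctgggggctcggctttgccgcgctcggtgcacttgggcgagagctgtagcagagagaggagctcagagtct
The Prom1 and Procr windows each hold 1 AP-1 match, which begins 88 bases before the start in Prom1 and 154 bases before it in Procr, and the Kit window holds 0. Of 32851 promoters of the same length 7.81% hold that motif. The windows of Cd44, which also fell under PP2, and of Epcam and Bmi1 hold 0, and 1 of the 2 Aldh1a1 windows holds a match 57 bases before the start. The Kit window holds a GC box (35.7% of promoters) and a GCGTG core (32.4%), and Prom1 holds a GC box and the RBPJ core (25.6%). TATAAA, in 13.6% of promoters, matched in 0 of the 3 windows. These are matches of letters and binding was not measured.

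Kit, the receptor tyrosine kinase for stem cell factor, rose under PP2, DAPT and TAE226. Its signal was 9553, 10409.6 and 9732 in PP2, 4122, 4433 and 4629 in DAPT, 3487, 3659 and 3587 in TAE226, 2869, 2836 and 2802 in U0126, and 2857, 2987 and 2971 in vehicle. The PP2, DAPT and TAE226 arrays each lay above every vehicle array, while U0126 and vehicle overlapped. The log2 fold change was 1.75 under PP2 (SE 0.05, 3.37-fold, adjusted p = 5.73e-13), 0.58 under DAPT (SE 0.05, adjusted p = 4.01e-07), 0.28 under TAE226 (SE 0.05, adjusted p = 0.000641) and −0.05 under U0126 (SE 0.05, adjusted p = 0.489). From low to high the order of Kit levels was U0126, vehicle, TAE226, DAPT and PP2, in which U0126 and vehicle lay within their spread and each later step passed the threshold. The step between PP2 and DAPT was 1.17 (adjusted p = 7.64e-11). The other Kit probe set, 1415900_a_at, gave 2.24 under PP2, 0.65 under DAPT, 0.47 under TAE226 and 0.05 under U0126, with calls for the same 3 inhibitors. The rise under TAE226 was the weakest, and with arrays centred on their medians it was 0.09 and was not called (adjusted p = 0.355). Mast cells also carry KIT, and their 8 marker genes summed to signals of 152 to 198 over PP2 arrays and 130 to 156 over vehicle arrays, with Mcpt4, Cma1, Cpa3 and Fcer1a dim in every group.

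Prom1, a pentaspan protein of membrane protrusions, fell under PP2 and, less far, under DAPT. Its signal was 225, 231 and 218 in PP2, 499.6, 566 and 545 in DAPT, 597, 688 and 662 in TAE226, 735, 782 and 673 in U0126, and 648, 682 and 695 in vehicle. PP2 and DAPT arrays lay below all vehicle arrays, and TAE226 and U0126 arrays overlapped with vehicle. On the log2 scale the change was −1.59 under PP2 (SE 0.08, 3-fold lower, adjusted p = 1.52e-10) and −0.33 under DAPT (SE 0.08, adjusted p = 0.00517). It was −0.06 under TAE226 (adjusted p = 0.626) and 0.11 under U0126 (adjusted p = 0.316). Levels ran from PP2 through DAPT, TAE226 and vehicle to U0126. PP2 differed from DAPT by −1.25 (adjusted p = 5.28e-09) and TAE226 from DAPT by 0.27 (adjusted p = 0.0259), while the steps between TAE226, vehicle and U0126 did not pass the threshold.

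Procr, the endothelial protein C receptor, fell under PP2 and rose under U0126 and TAE226. The signal was 41.5, 16.0 and 34.4 in PP2, 345, 319.6 and 269 in U0126, 284, 332 and 235 in TAE226, 133, 145 and 142 in DAPT, and 166, 167 and 124 in vehicle. PP2 arrays were dim and below all others, and U0126 and TAE226 arrays lay above all vehicle arrays. Under PP2 the fall was at least 1.77-fold (fitted log2 fold change −2.41, SE 0.27, adjusted p = 1.57e-06). The rise was 1.04 under U0126 (SE 0.27, adjusted p = 0.00611) and 0.90 under TAE226 (SE 0.27, adjusted p = 0.0188), and DAPT gave −0.11 (adjusted p = 0.8). The TAE226 call ended without vehicle replicate 3 (adjusted p = 0.0725) or TAE226 replicate 2 (0.0772), and with quantile normalization (0.0632) or median centring (0.0587). In the order PP2, DAPT, vehicle, TAE226 and U0126, the steps from PP2 to DAPT and from vehicle to TAE226 passed the threshold. The name of this probe set marks it as shared by more than 1 transcript (_s_at). Endothelial cells also express Procr. Their 7 marker genes summed to signals of 193 to 239 over PP2 arrays, 184 to 203 over U0126 arrays, 145 to 279 over TAE226 arrays and 95.5 to 282 over vehicle arrays, and Pecam1, Cdh5 and Vwf were dim in every group. Kdr, the only 1 of the 7 tested, lay above the median on 2 TAE226 arrays and on 1 array of each other group. It gave 0.64 under TAE226 (adjusted p = 0.219). The part of endothelial cells in the Procr results was not tested.

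Cd44, the hyaluronan receptor, fell under PP2 and DAPT. Its brightest probe set had signals of 3745, 3765 and 3745 in PP2, 4540.3, 4608 and 4574 in DAPT, 5032, 4943 and 5148 in U0126, 5404, 5251 and 5254 in TAE226, and 5642, 5723 and 5142 in vehicle. The PP2 arrays lay below all others and the DAPT arrays below all vehicle arrays. The log2 fold change was −0.55 under PP2 (SE 0.05, 1.46-fold lower, adjusted p = 7.86e-08), −0.26 under DAPT (SE 0.05, adjusted p = 0.000457), −0.12 under U0126 (SE 0.05, adjusted p = 0.0494) and −0.05 under TAE226 (adjusted p = 0.446). The U0126 and vehicle arrays overlapped, and that call ended under 11 alternatives, among them a replicate block (adjusted p = 0.0695) and each of 5 fits without 1 array. Neighbours in the order PP2, DAPT, U0126, TAE226 and vehicle differed between PP2 and DAPT (adjusted p = 0.000174) and between DAPT and U0126 (adjusted p = 0.027).

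The probe sets of Cd44 moved the same way under PP2 and by different amounts. Probe set 1452483_a_at had signals of 238, 245 and 269 in PP2, against 468, 501 and 487 in vehicle, a log2 fold change of −0.95 (SE 0.09, adjusted p = 2.14e-07). Probe set 1434376_at gave −0.35 (SE 0.06, adjusted p = 0.000104). Whether the probe sets differ from each other was not tested, and which transcript variants they read is not stated in the files. Neither was called under DAPT (−0.16 and −0.14, adjusted p = 0.201 and 0.0847). The last probe set, 1443265_at, had signals of 1.32 to 23.3, was dim on all 15 arrays and was not tested.

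Cd24a, a small glycosylated surface protein high in luminal cells, rose under PP2. Its brightest probe set had signals of 23142, 24633 and 23442 in PP2, 20158, 21939 and 19115 in U0126, 16711, 18446 and 20747 in TAE226, 18327, 17449.5 and 17010.6 in DAPT, and 19296, 17335 and 18345 in vehicle. PP2 arrays lay above every other array, and the remaining groups overlapped with vehicle. Relative to vehicle the log2 signal was changed by 0.37 under PP2 (SE 0.07, 1.3-fold, adjusted p = 0.000449), 0.15 under U0126 (adjusted p = 0.114), 0.02 under TAE226 (adjusted p = 0.866) and −0.06 under DAPT (adjusted p = 0.593). Probe set 1416034_at gave 0.49 under PP2 (adjusted p = 4.28e-07), 0.21 under U0126 (adjusted p = 0.00249), 0.16 under TAE226 (adjusted p = 0.0176) and −0.01 under DAPT (adjusted p = 0.893). The probe set 1437502_x_at, whose name marks possible cross-hybridisation, gave 0.30 under PP2 and was not called against vehicle under any inhibitor. From low to high the brightest probe set ran DAPT, vehicle, TAE226, U0126 and PP2, with only the last step called (adjusted p = 0.0184).

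High CD44 with low CD24 on the surface is the classical phenotype of breast tumour-initiating cells, so the 2 RNAs were set against each other within each array. This comparison was added after the values had been seen. Log2 Cd24a minus log2 Cd44, from the brightest probe sets, was 2.66 ± 0.04 in PP2, 2.01 ± 0.13 in U0126, 1.94 ± 0.06 in DAPT, 1.81 ± 0.18 in TAE226 and 1.74 ± 0.12 in vehicle (SD, n = 3 each). PP2 arrays, at 2.63 to 2.71, lay above all other arrays, the highest of which was at 2.15. The difference from vehicle was 0.93 for PP2, 0.28 for U0126, 0.21 for DAPT and 0.07 for TAE226. An exact two-sided permutation test gave p = 0.1 for PP2, U0126 and DAPT, the smallest that 3 arrays against 3 allow, and p = 0.5 for TAE226. Of 9 pairs of a Cd24a with a Cd44 probe set, p was 0.1 in 9 for PP2, 7 for U0126, 5 for DAPT and 4 for TAE226, and reached 0.6 for U0126, 0.4 for DAPT and 0.7 for TAE226. Over the 9 pairs the shift ran from 0.66 to 1.44 for PP2, from 0.18 to 0.34 for U0126, from 0.08 to 0.58 for DAPT and from 0.06 to 0.36 for TAE226. The 9 pairs reuse the same arrays, and a comparison chosen from the values with p of 0.1 at best describes these arrays only. In them the 2 signals changed unequally in whole PP2 cultures, while the smaller shifts under the other inhibitors depended on the pair. The share of cells with either surface phenotype was not measured.

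**Figure D2:**
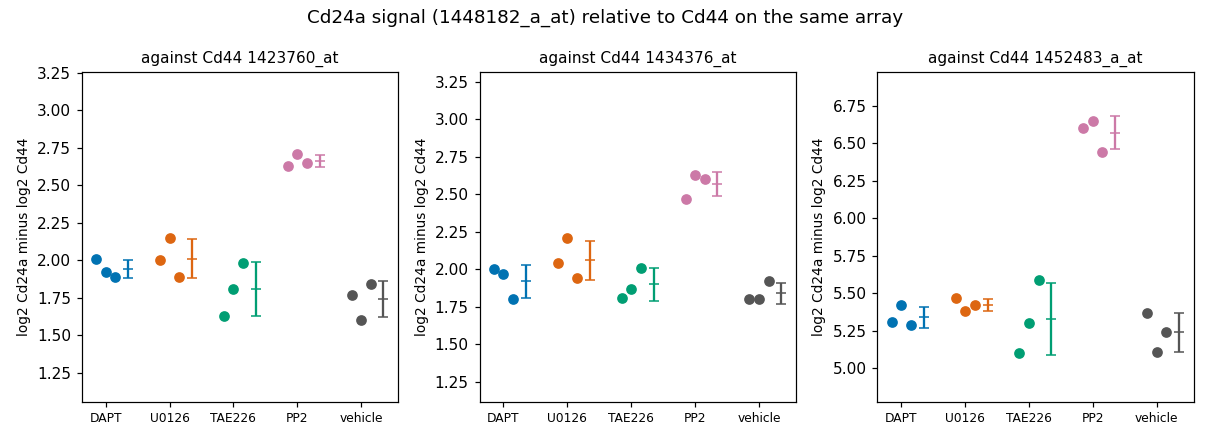
Log2 signal of Cd24a probe set 1448182_a_at minus log2 signal of each of the 3 tested Cd44 probe sets on the same array, 1 point per array, with the mean and SD (n = 3) to the right of each group. The 3 PP2 arrays are the highest in each panel, and the first panel holds the means of 2.66 for PP2 and 1.74 for vehicle.

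Epcam, an epithelial adhesion molecule, fell slightly under U0126 and DAPT. Signals were 11291, 12049 and 10708 in U0126, 11692, 11473 and 11095 in DAPT, 12391, 14146 and 13866 in TAE226, 13224, 14029.5 and 13916 in PP2, and 14995, 14638 and 14849 in vehicle. All inhibitor arrays lay below all vehicle arrays. The log2 fold change was −0.39 under U0126 (SE 0.06, 1.31-fold lower, adjusted p = 5.6e-05), −0.38 under DAPT (SE 0.06, adjusted p = 0.000105), −0.14 under TAE226 (adjusted p = 0.0754) and −0.11 under PP2 (adjusted p = 0.116). The values for TAE226 and PP2 passed with quantile normalization (adjusted p = 0.0417 for TAE226 and 0.0133 for PP2). They also passed with median centring, at −0.33 for TAE226 (adjusted p = 0.00509) and −0.24 for PP2 (adjusted p = 0.0234). The difference between U0126 and DAPT was −0.01, with a 95% interval of −0.13 to 0.11 (adjusted p = 0.908). In the order U0126, DAPT, TAE226, PP2 and vehicle only the step from DAPT to TAE226 was called (adjusted p = 0.00797). The probe set 1447899_x_at, of the kind open to cross-hybridisation, gave −0.41 under U0126 (adjusted p = 0.0232) but 0.03 under DAPT (adjusted p = 0.895), so the fall under DAPT rests on 1 probe set.

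Of the aldehyde dehydrogenase genes, Aldh1a3 was called in its brightest probe set under DAPT, U0126 and TAE226, and Aldh1a1 under U0126 only. Aldh1a3 fell under DAPT to a dim level. Its brightest probe set had signals of 43.2, 70.6 and 66.5 in DAPT, 325, 501 and 431 in U0126, 189.8, 166 and 145 in TAE226, 319, 353 and 427 in PP2, and 247, 337 and 253 in vehicle. DAPT arrays lay below all others, TAE226 arrays came next, and U0126 and PP2 overlapped with vehicle. The fall was at least 3.44-fold under DAPT (fitted log2 fold change −2.23, SE 0.20, adjusted p = 4.72e-07) and 1.66-fold under TAE226 (−0.74, SE 0.20, adjusted p = 0.0124). The value was 0.58 under U0126 (SE 0.20, adjusted p = 0.0363) and 0.40 under PP2 (adjusted p = 0.118). The TAE226 call ended without vehicle replicate 2 (adjusted p = 0.0652) or TAE226 replicate 3 (0.0555). The U0126 call ended when vehicle replicate 1 (0.121), vehicle replicate 3 (0.103), U0126 replicate 2 (0.155) or U0126 replicate 3 (0.0929) was left out, and with quantile normalization (0.0652) or median centring (0.1).

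A further Aldh1a3 probe set, 1427395_a_at, was also highest under U0126, with DAPT and TAE226 both dim. It had signals of 12.9, 18.7 and 21.5 in DAPT, 326, 438 and 336 in U0126, 81.0, 62.0 and 65.5 in TAE226, 229, 272 and 232 in PP2, and 122, 129 and 122 in vehicle. Here the groups did not overlap with vehicle under any inhibitor. The log2 fold change was 1.55 under U0126 (SE 0.20, adjusted p = 1.71e-05) and 0.98 under PP2 (SE 0.20, adjusted p = 0.000823), with falls of at least 1.55-fold under DAPT (adjusted p = 2.85e-08) and at least 1.42-fold under TAE226 (adjusted p = 0.00516), both to a dim level. The rise under PP2 was thus called in 1 of 3 Aldh1a3 probe sets. The third, 1417642_at, lay above the median on 3 of 15 arrays, 2 of U0126 and 1 of PP2, and passed the filter through them. It was called under U0126 (at least 1.2-fold, adjusted p = 0.0371), a call that ended with quantile normalization (0.0769), median centring (0.0587) or no filter (0.0576). Between inhibitors, U0126 exceeded DAPT at least 5.14-fold in the brightest probe set (adjusted p = 2.3e-08), and PP2 over U0126 was −0.18 there, with a 95% interval of −0.61 to 0.25 (adjusted p = 0.484). In 1427395_a_at PP2 over U0126 was −0.58 (adjusted p = 0.0265), and the arrays did not overlap. From low to high the brightest Aldh1a3 probe set ran DAPT, TAE226, vehicle, PP2 and U0126, and the first steps, up to vehicle, were called.

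Aldh1a1 was above the median under U0126 only. Its single probe set had signals of 158, 134 and 156 in U0126, 69.0, 61.1 and 16.9 in DAPT, 9.64, 55.8 and 16.6 in TAE226, 6.18, 4.74 and 8.38 in PP2, and 45.9, 9.45 and 7.19 in vehicle. The rise under U0126 was at least 2.04-fold (fitted log2 fold change 3.35, SE 0.80, adjusted p = 0.00345), and the other groups, dim like vehicle, have no fold change. Aldh1a1 passed the filter on dim probe sets only through its U0126 arrays, so this p-value is not independent of that choice. With no filter limma gave an adjusted p of 0.00331. No step between neighbours in the order of its levels was called. Aldh1a7, a close mouse relative of Aldh1a1, gave 1.74 under U0126 (adjusted p = 5.09e-07) and −2.25 under PP2 (adjusted p = 1.33e-08). The annotation gives each gene its own probe set, and whether these tell the 2 transcripts apart was not tested.

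Bmi1, a subunit of polycomb repressive complex 1, fell under U0126. Signals were 1881, 1862 and 2002 in U0126, 2689, 2571 and 2357 in TAE226, 2369, 2439 and 2569.96 in PP2, 2859, 2956 and 2813 in DAPT, and 2865, 3070.4 and 2704 in vehicle. U0126 arrays lay below all others, TAE226 and PP2 arrays lay just below vehicle, and DAPT overlapped with it. Fold changes on the log2 scale were −0.59 under U0126 (SE 0.06, 1.5-fold lower, adjusted p = 1.59e-06), −0.23 under PP2 (SE 0.06, adjusted p = 0.00623), −0.18 under TAE226 (SE 0.06, adjusted p = 0.0368) and 0.00 under DAPT (adjusted p = 0.997). The other Bmi1 probe set, 1448733_at, gave −0.50 under U0126 (adjusted p = 5.43e-05), −0.29 under TAE226 (adjusted p = 0.00783), 0.06 under PP2 (adjusted p = 0.534) and 0.07 under DAPT (adjusted p = 0.496), so the fall under PP2 was seen in 1 probe set. The TAE226 call of the brightest probe set ended under 9 alternatives, such as the fit without vehicle replicate 2 (adjusted p = 0.163) or without TAE226 replicate 3 (adjusted p = 0.173). In the order U0126, PP2, TAE226, DAPT and vehicle the step from U0126 to PP2 alone was called (adjusted p = 0.000136).

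**Figure D3:**
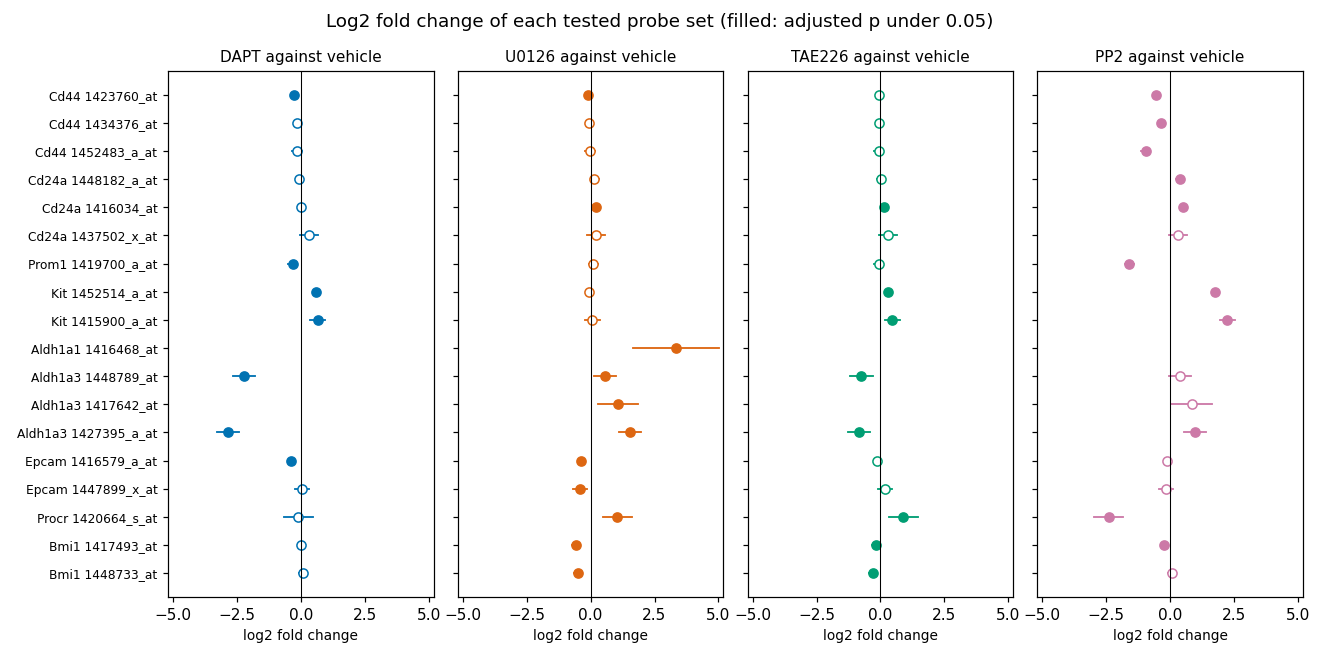
Log2 fold change against vehicle, with its 95% confidence interval from limma, of the 18 tested probe sets under DAPT, U0126, TAE226 and PP2; filled points passed an adjusted p of 0.05, and probe sets dim in both groups are left out. The Kit probe sets lie at 1.75 and 2.24 under PP2, and 2 of the 3 Aldh1a3 probe sets lie at −2.23 and −2.84 under DAPT, where the fitted values of dim groups are no bound.

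Among themselves the markers varied in a few patterns across the 15 arrays. Pearson's r of the log2 signals was −0.98 between Kit and Prom1, −0.93 between Kit and Cd44 and −0.91 between Kit and Procr, against 0.93 between Prom1 and Procr and 0.92 between Prom1 and Cd44. Cd24a went with Kit (0.64). All of these points share the same arrays and treatments, with PP2 at one end for each of these 5 genes, and the values are descriptions. Outside the list, the genes most like Kit were Selenop, a secreted selenoprotein (r = 0.989), and Eva1b (0.988). Those most like Prom1 were the desmosomal protein gene Dsp (0.99) and the membrane protein gene Emp1 (0.989), and those most like Procr were the non-coding RNA Pvt1 (0.978) and Pcolce2, an enhancer of procollagen processing (0.97). Fyn, which encodes a Src family kinase, came closest to Cd44 (0.979), followed by Mak16 (0.967). For Cd24a they were the clathrin light chain gene Clta (0.969) and Oaz1 (0.948), for Bmi1 the oncostatin M receptor gene Osmr (0.967) and Tlr3 (0.964), and for Aldh1a3 the protease gene Adamts3 (0.943) was among them. Epcam was nearest to the Wnt receptor gene Fzd5 (0.933) and Rnf125 (0.921), and Aldh1a1 to Syndig1 (0.897) and the CDK inhibitor gene Cdkn2b (0.888).

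Genes of the same lineages gave a partly different picture. Of 15 basal and stem-associated genes tested, 8 rose and 0 fell under DAPT (median 0.43, against 0.02 over all genes), among them Krt5 (0.95), the Wnt target Axin2 and the Notch ligand Jag2 (1.32). Under PP2 4 rose and 6 fell (median −0.05), with Krt5 at −1.20, and 4 rose and 4 fell under U0126 (median −0.08). Under TAE226 3 rose and 4 fell (median 0.09). Axin2, dim in vehicle, was higher under all 4 inhibitors, by at least 1.8-fold under PP2, 2.12-fold under U0126, 1.76-fold under DAPT and 2.15-fold under TAE226. Of 12 luminal progenitor genes, a class to which Kit and Aldh1a3 belong, 6 rose and 2 fell under PP2 (median 0.29), with lactoferrin, Ltf, at 1.99 and the complement regulator Cd55 at 1.37. Under U0126 2 rose and 6 fell (median −0.32, or −0.21 where dim genes are held at their lower bound), with Cd14 at −2.51 and Ltf at −1.94. The counts were 5 and 5 under DAPT (median 0.06, or 0.10 so held) and 2 and 5 under TAE226 (median −0.17, or −0.12). The falls under DAPT include Itga2 (adjusted p = 0.00874), which was dim there and has no lower bound. Of 7 mature luminal genes 2 rose and 2 fell under PP2 (median −0.03). One of these falls was Esr1 (adjusted p = 0.0176), which was dim in PP2 and vehicle and so has no fold change. Without Esr1 the PP2 median was 0.06. Counts were 1 and 1 under U0126 (0.08), 3 and 1 under TAE226 (0.16), and 1 and 2 under DAPT (−0.34, or −0.11 with dim genes held at their bound). The luminal transcription factor Gata3 was at 1.24 under PP2 and 0.59 under DAPT.

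The ligands and partners of the markers moved in both directions in most lists. So did all genes tested, of which 25.8% rose and 26.5% fell under PP2, and 19.0% and 20.8% under U0126. The shares were 16.5% and 17.0% under DAPT, and 15.0% and 15.5% under TAE226. They apply to every list of related genes, and whether these lists depart from them was not tested. Of 7 genes of the KIT pathway tested, 5 rose and 1 fell under DAPT (median 0.29), 2 rose and 2 fell under PP2 (0.07), 2 and 1 under U0126 (0.05), and 1 and 0 under TAE226 (0.07). Kitl, the KIT ligand, gave 0.59 under DAPT (adjusted p = 3.89e-07), −0.66 under U0126 (adjusted p = 6.36e-08) and −0.25 under PP2 (adjusted p = 0.000945), where its receptor rose. Of 10 ligands, partners and splice regulators of CD44 2 rose and 4 fell under PP2 (median −0.16), among them the matrix proteoglycan Vcan (to a dim level, at least 2.94-fold), the hyaluronan receptor Hmmr (−1.65) and moesin, Msn, which links CD44 to actin (−1.17). Counts for these genes were 3 and 3 under U0126 (median 0.13), 4 and 2 under TAE226 (0.11), and 3 and 2 under DAPT (0.02). Of 10 genes of retinoic acid metabolism and response 5 rose and 2 fell under PP2 (median 0.46) and 3 rose and 0 fell under U0126 (0.15). Crabp2, which carries retinoic acid to its receptor, was higher under U0126 (1.06) and PP2 (0.77) and lower under TAE226 (−0.80) and DAPT (−0.36), and the retinoic acid receptor gene Rarb, itself a target of retinoic acid, was dim in all groups but PP2, where it was at least 3.24-fold higher (adjusted p = 3.97e-05). Rarb passed the filter on dim probe sets only through its PP2 arrays. Its p-value and its place among the genes that rose under PP2 are therefore not independent of that choice. In this list 2 rose and 2 fell under TAE226 (median 0.11), and 2 and 1 under DAPT (0.06). Without Rarb, which was dim in these groups and in vehicle, the median was 0.05 under TAE226, 0.15 under DAPT and 0.22 under U0126.

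Among 18 polycomb genes other than Bmi1, 4 rose and 6 fell under PP2 (median −0.01), 3 and 1 under U0126 (0.06), 5 and 1 under TAE226 (0.15), and 4 and 1 under DAPT (0.00), with the chromodomain gene Cbx6 at 0.80 under PP2 and 0.71 under DAPT. Of 12 EPCAM partners and proteases 4 rose and 2 fell under PP2 (median 0.09), 1 and 3 under U0126 (0.02), 3 and 2 under TAE226 (0.06), and 2 and 3 under DAPT (−0.06), the tight junction gene Cldn1 by −0.76 under DAPT. In the protein C receptor pathway 3 genes were tested, of which 2 rose and 1 fell under U0126, with the thrombin receptor F2r at 1.63. For these 3 the counts were 1 and 1 under TAE226, 0 and 1 under PP2 and 1 and 0 under DAPT. Of 3 genes tested for their link to PROM1 the paralogue Prom2 gave −0.83 under PP2 and 1.31 under U0126, and 1 rose and 1 fell under both, against 0 and 0 under TAE226 and 1 and 0 under DAPT. The only tested gene for CD24 binding was L1cam, lower under DAPT (−0.73) and higher under TAE226 (0.52).

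**Figure D4:**
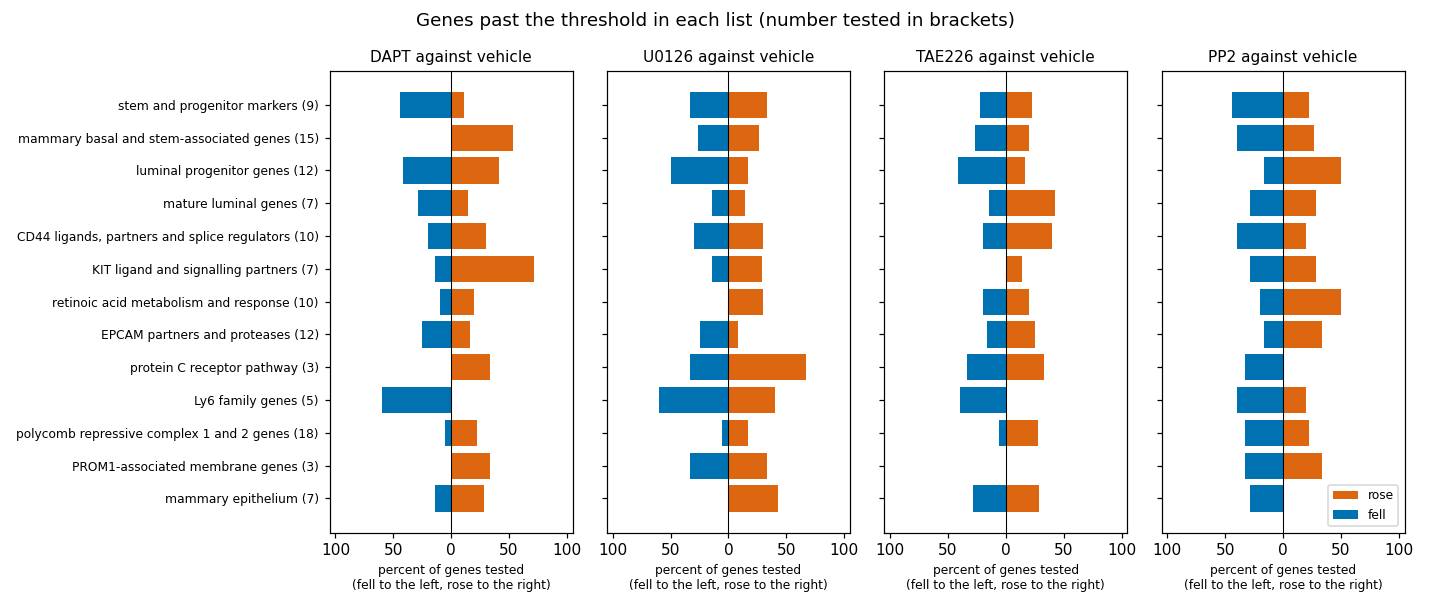
Percent of tested genes in each list that fell (blue, to the left of 0) or rose (orange, to the right) past an adjusted p of 0.05 against vehicle, under DAPT, U0126, TAE226 and PP2; the number tested stands in brackets. Calls of genes dim in both groups are included. Of the basal and stem-associated genes 53.3% rose and 0 fell under DAPT, where 16.5% of all genes rose.

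Although Ly6a itself was not analysed here, other Ly6 genes were. Of 5 tested, 0 rose and 3 fell under DAPT, 2 and 3 under U0126, 0 and 2 under TAE226, and 1 and 2 under PP2. Medians were −0.25, 0.00, 0.00 and −0.11 in the same order where dim genes are held at their bound. The falls under DAPT and U0126 include Ly6g6d, which was dim there, has no lower bound and was counted as no change in those medians. It passed the filter on dim probe sets through 2 PP2 arrays and 1 vehicle array. Ly6d gave −1.87 under PP2, −1.19 under TAE226, −0.74 under DAPT and −0.33 under U0126, each past the threshold. Several genes of this family respond to interferon. All 11 interferon-stimulated genes tested fell under each inhibitor, such as Ifit1 at least 40.4-fold under PP2, where it was dim. Under TAE226 Ifit1 changed by −2.44 on the log2 scale. Of the 11, Mx1 passed the filter on dim probe sets only through its vehicle arrays, and Mx2 through vehicle arrays and 2 TAE226 arrays. The falls of Mx1 and Mx2 are therefore not independent of that choice. The link between the lists was not tested.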

How the data were processed

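Each deposited value is the linear signal intensity of a probe set on 1 array. The authors made these intensities with Affymetrix Expression Console and MAS5, per the submitters' processing notes, which give no version. Per the labels, biotinylated cRNA was prepared from 250 ng of total RNA with a 3′ kit and hybridised to Mouse430_2 arrays. Trimmed by 2% at both ends, every array averaged 500.0, which can hide a shift shared by many genes.

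Of 45101 probe sets 64 were controls, and the platform annotation paired 34945 with 1 gene, 932 with several and 9160 with none listed. Of the single-gene probe sets 34741 were matched by Entrez ID to a reference symbol, and 204 kept the symbol of the annotation. Testing required a value over the array median on 3 or more arrays, which 21323 probe sets passed, 18 of the markers' 19 among them. limma (version 3.58.1, R 4.3.3) was run on log2 intensities of all 15 arrays with a mean per group and an intensity trend, leaving 10 residual and 5.82 prior degrees of freedom; no pseudocount was added. Two-sided p-values were adjusted by Benjamini and Hochberg within each comparison. Gene counts use the probe set of highest mean log2 intensity, tested for 11412 genes. Precision is limited by the number of arrays.

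The markers and gene lists were chosen with earlier results of these data known. Genes named beside the markers were, per list, at most 3 called genes of greatest change, the defining markers of cell type lists, and the 2 genes most correlated with each marker, of which 1 is not reported here. Pairs of arrays differed by a median of 0.112 to 0.165 (absolute log2) inside groups and 0.183 to 0.378 across groups, so none was a copy. Sample numbers run by treatment, so processing order and treatment cannot be told apart. Alternatives were other scalings, a pseudocount, no filter, no trend, 2 groups at a time, a replicate block, 1 probe set per gene and leaving out each array.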

Additional observations from a re-analysis of the deposited data

How the results depend on the processing

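The counts of marker probe sets called against vehicle were 11 for PP2, 11 for U0126, 7 for DAPT and 8 for TAE226, 17 differed among the groups, and 73 of 108 tests passed over the 6 pairs of inhibitors. Leaving out each array in turn gave 11 to 12, 7 to 9, 7 to 8, 5 to 8, 16 to 17 and 66 to 75. The counts for U0126, among the groups and over the pairs include Aldh1a1 and Aldh1a3 probe set 1417642_at. These passed the filter on dim probe sets through U0126 arrays, with 1 PP2 array for the latter. With 1 probe set per gene, where only 9 were tested, the counts were 6 for PP2, 6 for U0126 and 4 for TAE226, 9 among the groups and 42 over the pairs. Median centring left 7 under U0126, and under TAE226 also 7, with 0 higher and 7 lower in place of 4 and 4. The fit on the TAE226 and vehicle arrays alone, with fewer samples, left 5. The cause of the shift with median centring was not tested. Without U0126 replicate 2 the U0126 count was 7, and without vehicle replicate 1, TAE226 replicate 2 or TAE226 replicate 3 the TAE226 count was 5. Median centring moved the median log2 fold change of all probe sets under TAE226 to −0.13, against 0.06 in the values reported, and under PP2 to −0.08, against 0.05.

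Of the single markers under each inhibitor, 489 of the values under alternatives kept direction and side of the threshold, 35 lost the call, 6 gained it and 10 changed sign. The last were all values not called: Cd24a under DAPT with quantile normalization (0.10), Cd24a under TAE226 with median centring (−0.17), without vehicle replicate 2 (−0.02) or without TAE226 replicate 3 (−0.06), Aldh1a1 under TAE226 without vehicle replicate 3 (−0.01) or TAE226 replicate 2 (−0.21; up to 1.33 over all arrays left out in turn, all fitted between dim groups), and Bmi1 under DAPT with quantile normalization (0.03) or without vehicle replicate 2 (0.05), DAPT replicate 1 (0.00) or DAPT replicate 3 (0.02), with a lowest value of −0.04. For Aldh1a1 under DAPT the adjusted p without vehicle replicate 1 was 0.0427, but both groups are dim and have no fold change. With median centring Cd44 under TAE226 passed (−0.24, adjusted p = 0.0206). With the replicate number as a block the counts were 11 for PP2, 10 for U0126, 7 for DAPT and 7 for TAE226, with 17 among the groups and 72 over the pairs. Same-numbered arrays of different groups did not deviate together (correlations of −0.228 to 0.188). With so few arrays this cannot show whether same-numbered cultures shared a tumour, a mouse or a batch, which the labels do not say. Dim signal limits what can be said of Aldh1a1 outside U0126, of Procr under PP2 and of Aldh1a3 under DAPT.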
